A study of Mus musculus with 4 samples.

Results

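The 4 ID genes (Id1, Id2, Id3 and Id4) and the 3 E protein genes (Tcf3, Tcf4 and Tcf12) were examined for GATA2 occupancy in female fetal germ cells of the mouse. They are 7 of the 21631 protein-coding genes on the chromosomes that carry GATA2 summits, and they were taken by family name. A gene was given every summit, the position of highest signal in a peak, that lay inside its RefSeq gene body or within 100 kb of it. This placed 9 of the 995 summits of the deposited list, and they fell on only 2 of the 7 genes, Id3 and Tcf3. The family was chosen by the positions and fold values of these same peaks, so both are given as a description and no test is made of them.

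E proteins are basic helix-loop-helix transcription factors that bind E-box sequences, alone or paired with a tissue-specific helix-loop-helix partner. ID proteins have the helix-loop-helix but no basic DNA-binding region, and they hold E proteins in pairs that cannot bind DNA. BMP signalling, which also acts on germ cells of the fetal ovary, is the classic inducer of ID genes through SMAD factors. In blood cells GATA factors and E proteins meet in one DNA-bound complex, bridged by LMO2 and LDB1. Tcf3 encodes E2A (the E12 and E47 isoforms), Tcf4 encodes E2-2 and Tcf12 encodes HEB, and the names should not be confused with Tcf7l1 and Tcf7l2, the WNT effectors that were once called TCF3 and TCF4.

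Occupancy was measured by CUT&Tag, in which Tn5 transposase is brought to an antibody on chromatin and tags the DNA there. The germ cells were sorted at E13.5 from ovaries of fetuses of C57BL/6J females mated to BVSC males, whose transgenes place mVenus under Blimp1 (Prdm1) and ECFP under Stella (Dppa3), and all 4 libraries share this genotype. The series has 2 libraries made with the GATA2 antibody and 2 labelled as input with no antibody. The deposited list pools the GATA2 libraries, so no value has a replicate spread, and the sources used here do not give the number of fetuses or cells behind a library. A peak list gives no level of any gene, and the labelled cell type could not be checked on marker levels. Over the whole list the median fold enrichment was 4.15, the median interval was 332 bp wide and 67.7% of summits had a q of at most 0.05. Each deposited fold and p was solved for the number of GATA2 fragments at the summit, and the median was 9. Intervals given with fragment numbers are 95% exact Poisson intervals and cover counting error only. Of the short lists of cell markers, germ cell genes had a summit in the window at 2 of 7 (Prdm1 and Dppa3, which the transgenes are named for), somatic gonad genes at 2 of 11, blood genes at 1 of 7 and endothelial genes at 0 of 6. As shares these were 28.6%, 18.2%, 14.3% and 0%, beside 14.9% of all protein-coding genes. The germ cell share rests on the 2 genes that the transgenes are named for. Signal from transgene sequence could not be told apart from signal at the genes themselves, so nothing is read from this share.

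The promoter sequences of Id3 and Tcf3 are shown because a GATA2 interval overlaps each of them. They come from the RefSeq promoter table of GRCm38.p6, read 5′ to 3′ on the strand of the gene, and position +1 is the listed start site. Capitals mark the letters GATA, the core of the GATA recognition sequence, or TATC, which is GATA on the other strand. For Id3 (chr4:136143572-136143821, plus strand), the 250 bases before the start site are followed by a separate run of 30 bases, from the summit base at +21 to +50. For Tcf3 (chr10:80433636-80433885, minus strand), the 250 bases before the listed start site are shown.
Id3 before the start: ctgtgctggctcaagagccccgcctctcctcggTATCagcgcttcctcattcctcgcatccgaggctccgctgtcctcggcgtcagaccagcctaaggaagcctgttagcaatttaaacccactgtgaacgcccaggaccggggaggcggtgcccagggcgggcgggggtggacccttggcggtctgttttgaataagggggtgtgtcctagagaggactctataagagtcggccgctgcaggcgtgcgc
Id3 from the summit: tgtctcttttcctccctctcTATCtctact
Tcf3 before the start: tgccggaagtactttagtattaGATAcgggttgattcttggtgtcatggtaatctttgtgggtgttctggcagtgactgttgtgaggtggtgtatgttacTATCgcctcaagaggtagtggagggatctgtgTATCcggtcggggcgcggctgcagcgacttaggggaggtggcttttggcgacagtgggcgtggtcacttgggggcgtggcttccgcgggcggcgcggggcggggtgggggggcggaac

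Id3, which encodes an inhibitor widely induced by BMP signalling, was the ID gene with summits, and it carried 4 of its own. The gene is 1571 bp long (chromosome 4, 136143822 to 136145392, plus strand; NCBI Gene 15903). The 4 summits lay in 4 separate intervals that together spanned 4.17 kb, from the start of the gene to the sequence just past its end. The first summit, at 136143842, lay 20 bp inside the gene at its start, in an interval of 467 bp. Its fold was 4.50 on 10 fragments (4.80 to 18.4), with a −log10 q of 1.75. The second summit, at 136144771, lay inside the gene, 621 bp before its end. It had the same fold of 4.50 and the same 10 fragments, in a wider interval of 652 bp.

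The strongest Id3 summit lay outside the gene, 1619 bp past its 3′ end, at 136147011 (interval 136146697 to 136147389, 693 bp). It reached 11.3-fold on 29 fragments (19.4 to 41.6), with a −log10 q of 15.0, and ranked 15 among the 995 summits by fold. It held 2.9 times as many fragments as either summit inside the gene. It is named here as the strongest of the 4, so this difference was not tested. The fourth summit followed 810 bp further on, at 136147821, with a fold of 3.44 on 7 fragments (2.81 to 14.4). Its −log10 q was 0.30, so it was in the list on its unadjusted p alone. The background solved along with the fragment numbers stood at its genome-wide level (1.00 times) at all 4 summits. The gene table gives no exons, so the summits inside the gene could not be placed in an exon, intron or UTR.

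The fifth summit in the Id3 window lay 83.9 kb before the gene, at 136059939, with a fold of 4.15 on 9 fragments (4.12 to 17.1). For this summit Rpl11, a ribosomal protein gene 6.5 kb away, was the nearer gene. Other genes within reach of the strongest Id3 summit were few, with 3 other protein-coding genes within 100 kb of it. Beyond the window the next summit was 856.7 kb from Id3, so nothing stood close to the 100 kb limit on the outside.

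**Figure D1:**
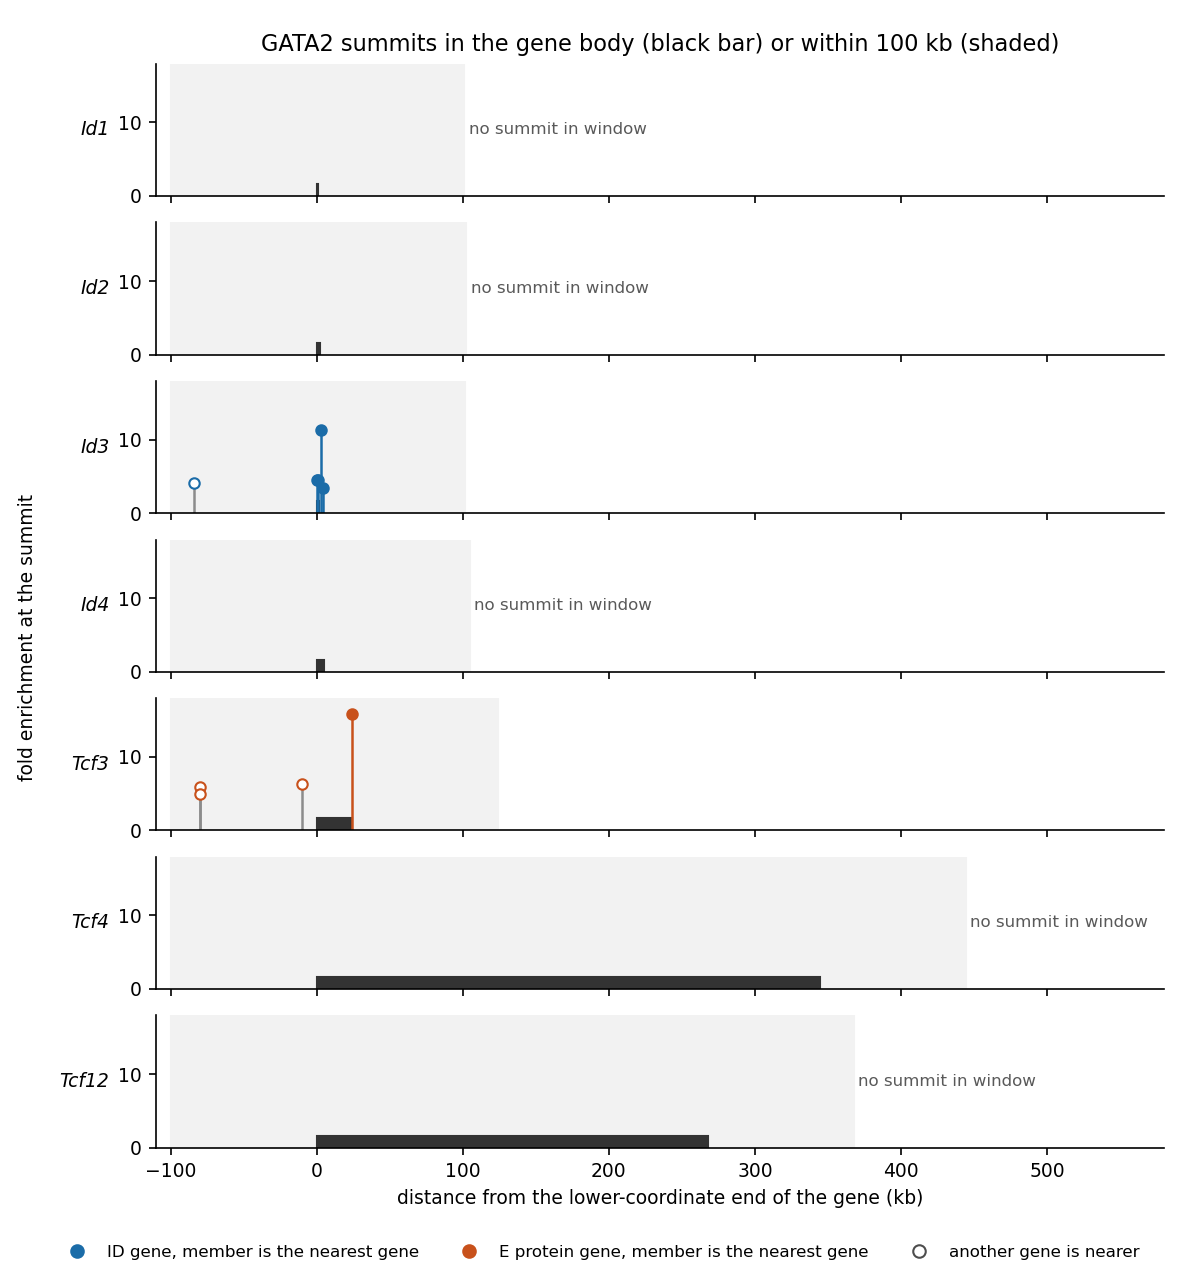
Fold enrichment at each GATA2 summit (vertical axis) against its distance from the lower-coordinate end of the gene in kb (horizontal axis), with 1 panel per gene, the gene body as a black bar and the window of 100 kb on each side shaded. Filled points are summits for which the gene is the nearest one, open points are summits nearer to another gene, and the Id3 points at 4.50-fold overlap. The windows of Id3 and Tcf3 hold 5 and 4 summits and the other 5 windows hold 0.

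Tcf3, which encodes the E protein E2A, had a single summit of its own, with a higher fold than any at Id3. The gene spans 24.4 kb (chromosome 10, 80409541 to 80433976, minus strand; NCBI Gene 21423). The summit, at 80433948, lay 28 bp inside the outer end of the gene on its 5′ side (interval 80433654 to 80434268, 615 bp). It reached 15.9-fold on 42 fragments (30.3 to 56.8), with a −log10 q of 26.0, and ranked 6 in the list by fold. Counted from the start site in the promoter table, which is 80433635, it lay at -313, and thus between that start and the more distant end of the annotated gene. The counting intervals of the Tcf3 summit and of the strongest Id3 summit overlapped, so 42 and 29 fragments were not told apart by counting alone. The background was at the genome-wide level here too, 1.00 times.

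The other 3 summits in the Tcf3 window were each nearer to another gene. A summit at 80399632, 9.9 kb past the 3′ end of Tcf3, lay 101 bp from Mbd3, which encodes a subunit of the NuRD chromatin remodelling complex. Its fold was 6.28 on 15 fragments (8.40 to 24.7), with a −log10 q of 5.20. A single interval of 614 bp, about 80 kb from Tcf3, held the remaining pair, at 80329876 and 80329585. The first was nearest to Reep6 (5.93-fold, 14 fragments) and the second to Pcsk4 (4.93-fold, 12 fragments), at 79.7 and 80.0 kb from Tcf3. At the Pcsk4 summit the background was 2.00 times the genome-wide level. The Tcf3 window is rich in genes, with 11 other protein-coding genes against 3 in the Id3 window. Just outside the window, summits lay at 148.2 kb (nearest to Dazap1) and 156.6 kb (nearest to Abhd17a), each 4.15-fold on 9 fragments.

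**Figure D2:**
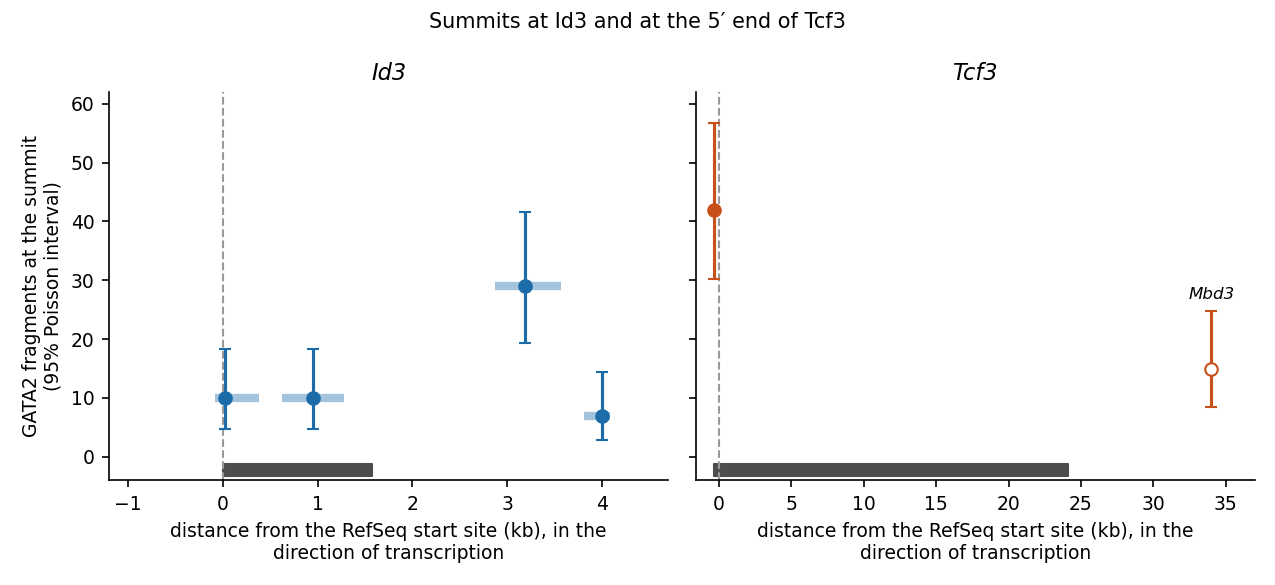
GATA2 fragments at each summit (vertical axis, points with 95% Poisson intervals) against the distance in kb from the RefSeq start site in the direction of transcription (horizontal axis) at Id3 and at Tcf3 up to Mbd3. Light horizontal bars show the width of each interval, dark bars the gene bodies, and the open point is the summit nearer to Mbd3. The strongest Id3 summit (29 fragments) lies past the gene's end, and the Tcf3 summit (42 fragments) lies at its 5′ end.

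In the sequences printed above, the Id3 promoter held GATA at positions -217 to -214 and at +41 to +44. The first of these lay outside the GATA2 interval, which began at -85. The second lay inside it, 20 bp from the summit, and was part of AGATAG on the opposite strand. The Tcf3 promoter held GATA at -228 to -225, -150 to -147 and -118 to -115. All 3 lay inside the interval, at 85, 163 and 195 bp from the summit, and none had the longer form. The searched promoter covered only 232 of the 615 bp of that interval. The Tcf3 summit itself, at -313, lay outside the searched bases, so nearer matches could not be seen. The longer form searched, on either strand, was AGATAA and the 3 variants of it that begin with T, end with G or do both, all of which contain GATA. Of 32851 RefSeq promoters of 300 bases, 57.9% held GATA and 29.8% held the longer form. These matches are a description of the letters, and the sequences under the strongest Id3 summit and under the Tcf3 summit were not used here.

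The 5 genes with promoter entries were Id2, Id3, Id4, Tcf3 and Tcf12, and Id1 and Tcf4 had none. The Id2 and Id4 promoters held no GATA. Tcf12 has 3 listed promoters, with 1, 0 and 2 matches. The E-box CANNTG, the sequence E proteins bind, was present in 72.3% of all promoters. Id3 and Id4 had no match, Id2 and Tcf3 had 1 each, and the 3 Tcf12 promoters had 1, 2 and 1. The palindrome GGCGCC, which has been described in BMP-responsive elements, was in 11.9% of all promoters, and Id2 and Id4 held 1 match each while Id3, Tcf3 and Tcf12 held none. The Id3 and Tcf3 promoters were 60.0% and 61.7% G and C, and the median over all promoters was 52.7%. Among the genes without a summit the value was 63.3% for Id2 and 73.3% for Id4, and the 3 Tcf12 promoters had 71.7%, 75.7% and 36.3%.

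Among the ID genes, Id1, Id2 and Id4 had no summit in their windows. Id1, the close relative of Id3 and another BMP target (chromosome 2, 152736251 to 152737410), was 225.1 kb from the nearest summit. That summit lay inside Ttll9 and had a fold of 3.08 on 6 fragments, with a −log10 q of 0.30. Id4 (chromosome 13, 48261116 to 48266028) was 903.8 kb from the nearest one, which had a fold of 3.44. Id2 (chromosome 12, 25093799 to 25096092), a regulator of lymphoid and other lineages, was 3959.3 kb from the nearest one, inside Asap2 (7.11-fold). The nearest summit was as far away or farther for 74.6% of all protein-coding genes in the case of Id1, 43.8% for Id4 and 9.93% for Id2.

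Among the E protein genes, Tcf4 and Tcf12 had no summit, although their long bodies make their windows the widest of the 7. Tcf12 (chromosome 9, 71844252 to 72111893) is 267.6 kb long and was 1301.8 kb from the nearest summit, at Sltm (3.02-fold, 6 fragments). Tcf4 (chromosome 18, 69343429 to 69687967) is 344.5 kb long and was 4770.8 kb from the nearest one, inside Myo5b (3.34-fold, 8 fragments). The nearest summit was as far away or farther for 34.2% of genes in the case of Tcf12 and 7.62% for Tcf4. Summits were sparse in the whole list, 0.0381 per 100 kb of annotated chromosome. At that mean density the windows of Tcf4 and Tcf12 together would hold 0.386 summits and those of Id1, Id2 and Id4 together 0.232. The mean also covers sequence far from genes, so it is only a rough guide to gene windows. Counted by gene, 12% of genes no longer than Id4 and 13.3% of those at least as long as Tcf12 had a summit. An empty window was thus the usual case. The weakest listed summit at the genome-wide background had 6 fragments, and a site with fewer was not detectable at this depth.

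**Figure D3:**
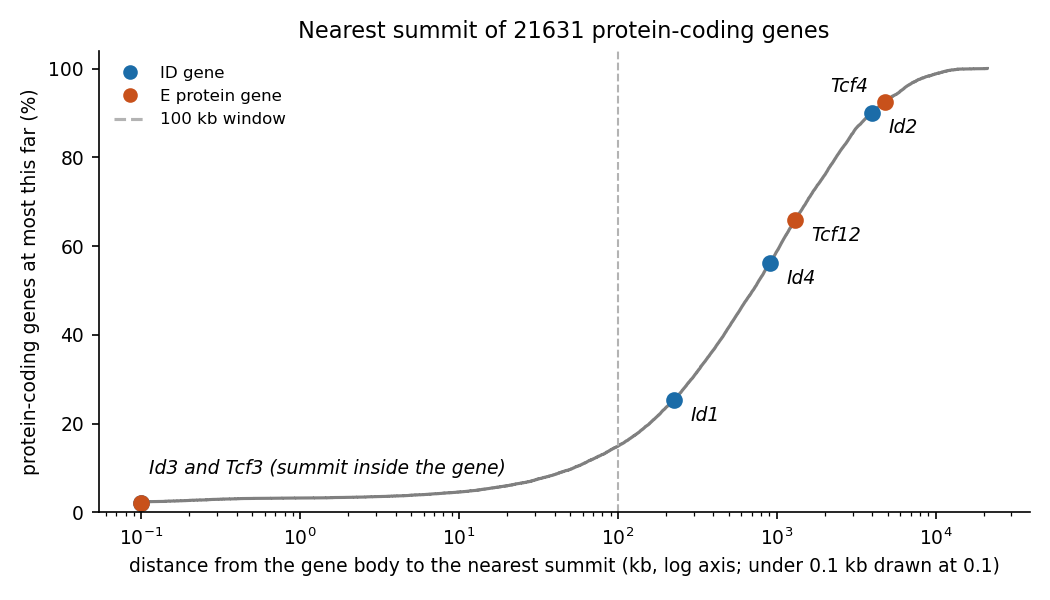
Share of 21631 protein-coding genes (vertical axis, %) whose nearest GATA2 summit lies within a given distance of the gene body (horizontal axis, kb, log scale). Points mark the ID genes and E protein genes, and the dashed line is the window of 100 kb. Id3 and Tcf3 hold a summit inside the gene, Id1 follows at 225.1 kb, and Id2 and Tcf4 are the farthest at 3959.3 and 4770.8 kb.

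Set against all protein-coding genes, 2 of the 7 had a summit in the window (28.6%), where 14.9% of all genes did. The share was 12% among genes no longer than Id4 and 13.3% among genes at least as long as Tcf12. With only 7 genes chosen with these values known, nothing is read from that difference. Summits with a q of at most 0.05 stood in the windows of the same 2 genes and of 10.2% of all genes. Id3 and Tcf3 each had a summit inside the gene body, as 2.08% of all genes did, and each was the nearest gene to a summit, as 3.81% were. Both windows held 4 or more summits, as 0.421% of all windows did. A summit of 10-fold or more stood in both windows, against 0.633% of windows, and both genes were the nearest gene to such a summit, as 0.153% of genes were. Id3 was the nearest gene to 4 summits within 100 kb, and 4 or more were counted for 0.0231% of genes (5 of 21631). All these shares rest on the values by which the genes were chosen.

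In each family 1 gene had summits (1 of 4 and 1 of 3), so the values of the families are those of Id3 and Tcf3. The windows of 100 kb held 5 summits near ID genes and 4 near E protein genes, and the order depended on the setting. With only the nearest protein-coding gene the counts were 4 and 1, and with a −log10 q of at least 5 they were 1 and 3. Those 3 include the summits nearer to Mbd3 and to Reep6, each with a −log10 q of 5.20, just above that limit. At Id3 the gene itself was nearest to 4 of the 5 summits, and these summed to 56 fragments. At Tcf3 the gene was nearest to 1 of the 4, with 42 fragments. The ID summits had folds of 3.44 to 11.3 with a median of 4.50, and the E protein summits had folds of 4.93 to 15.9 with a median of 6.11. Of the summits, 4 of 5 near Id3 and 4 of 4 near Tcf3 had a q of at most 0.05. Interval widths were 274 to 693 bp near the ID gene and 353 to 615 bp near the E protein gene. All values come from a single pooled list and 1 gene in each family, and no test of the difference was made.

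**Figure D4:**
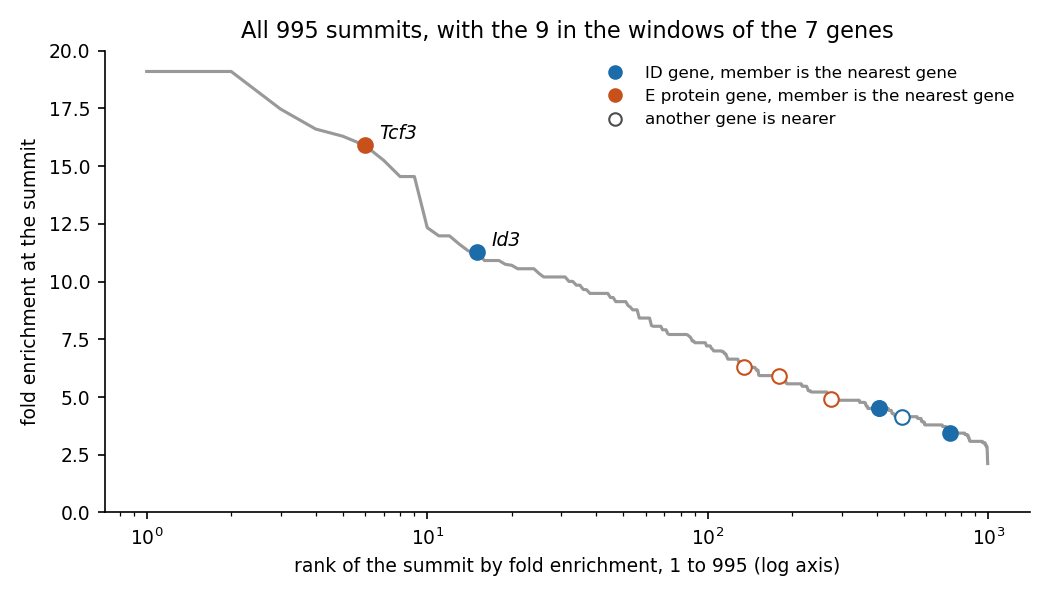
Fold enrichment (vertical axis) of all 995 GATA2 summits in order of fold (horizontal axis, rank, log scale), with the 9 summits in the windows of the ID and E protein genes as points. Filled points have the ID or E protein gene as the nearest gene. Tcf3 (15.9-fold, rank 6) and the strongest Id3 summit (11.3-fold, rank 15) stand at the top, and the other 7 points lie at 6.28-fold or less.

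Few genes had 3 or more summits that all lay close to a gene end, as Id3 did. Counting only summits for which a gene is the nearest one, 4 genes had 3 or more summits that all lay within 5 kb of a gene end. Beside Id3 these were Dppa3, whose transgene marks the sorted cells (5 summits in 2 intervals, 7.07-fold at most), Rpl22, a ribosomal protein gene (3 summits, 5.93-fold), and Peg3, an imprinted zinc finger gene (3 summits, 5.86-fold). The summits of Id3 lay in 4 separate intervals, and those of the other 3 genes in 2 each. The strongest Dppa3 summit held 32 fragments against 29 at Id3 but had the lower fold, so its background stood higher. Genes with any further summit beyond 5 kb, such as Zfpm1 and Prdm1, were not counted here. Prdm1 was the nearest gene to 11 summits, up to 17.5-fold on 53 fragments, and their −log10 q ran from 0 to 27.4. At both Prdm1 and Dppa3, signal from transgene sequence could not be told apart from signal at the genes themselves. At any distance, 15 genes were nearest to 3 or more summits. For Tcf3 the comparison was with summits of 10-fold or more within 100 bp of a gene end, of which there were 7. Tcf3 was the second of them by fold, after the repressor gene Zbtb20 (19.1-fold, 51 fragments) and before Npc2, a cholesterol transport gene (14.6-fold, 39 fragments), the citrate synthase gene Cs (12.3-fold, 32 fragments) and the serine synthesis gene Psat1 (11.6-fold, 30 fragments).

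Other genes of the same network were counted from 4 lists, which were chosen with earlier results of these data known. Of 48 tissue-specific helix-loop-helix genes, which encode partners that pair with E proteins, 3 had a summit in the window (6.25%, beside 14.9% of all genes). Neurog1, a neuronal determination gene, was the nearest gene to 2 of these summits, 13.4 kb (5.57-fold, 13 fragments) and 26.7 kb away (3.79-fold, 8 fragments). Atoh8 and Bhlha15 had 1 summit each at 3.44-fold, nearer to St3gal5 and Tecpr1. The germ cell helix-loop-helix genes Figla, Sohlh1 and Sohlh2 and the blood regulators Tal1 and Lyl1 had none. The HES and HEY list held 12 genes that encode repressor helix-loop-helix proteins, which act downstream of Notch among others. It included the related genes Helt, Bhlhe40 and Bhlhe41. Of the 12, 3 had a summit in the window (25%), and in all 3 cases, Hes3, Hes7 and Helt, another gene was nearer.

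A list of 21 genes was drawn around the complex that joins GATA factors to E proteins, with relatives of its parts and FOG and ETO cofactors. Of these, 7 had a summit in the window (33.3%, beside 14.9% of all genes) and 5 were the nearest gene (23.8%, beside 3.81%). Among the 5 nearest genes Zfpm1, which encodes FOG1, had the highest fold, 5.94 on 15 fragments, and it was nearest to 5 summits with folds from 3.40 upwards. Runx1t1, which encodes the corepressor ETO that binds E proteins, had 2 summits inside the gene. They stood at 5.22-fold (12 fragments, −log10 q 3.37) and 4.15-fold (9 fragments, −log10 q 1.75). Lmo4 (4.50-fold, 10 fragments, −log10 q 1.75) and Lmo1 (4.29-fold, 11 fragments, −log10 q 1.44), which encode LIM-only adaptors, had 1 each inside the gene. Gata2 itself was nearest to a summit 4.1 kb away (3.44-fold on 7 fragments, −log10 q 0.30). The Gata2 window also held 2 stronger summits that were nearer to Dnajb8, 19.7 kb (7.74-fold on 22 fragments, −log10 q 6.85) and 12.3 kb from Gata2 (4.86-fold on 11 fragments, −log10 q 3.37). Lmo2, Ldb1 and the ETO relative Cbfa2t3 had no summit in the window. Neither had Tal1 and Lyl1, which were counted in the helix-loop-helix list and not in this one.

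Of 25 genes listed around the BMP route to the ID genes, 5 had a summit in the window (20%, beside 14.9%) and 3 were the nearest gene (12%, beside 3.81%). Zglp1, counted among the 5, is not itself a BMP ligand, receptor, SMAD or antagonist gene. Smad5, a transducer of BMP signals, had a summit inside the gene (4.28-fold on 20 fragments, −log10 q 0.84). Bmp4, a BMP ligand gene, had one 21.8 kb away (3.66-fold, −log10 q 0.30), and Smad6, which encodes an inhibitory SMAD, one 0.7 kb away (3.02-fold, −log10 q 0.23). None of these 3 summits reached a q of 0.05. Such summits stood in the windows of 2 other genes of the list, each nearer to a gene outside it. They were at Smad7 (5.22-fold, −log10 q 3.37, nearer to Dym) and Zglp1 (4.50-fold, −log10 q 1.75, nearer to Icam4). The median distance to the nearest summit was 713 kb in this list, 591 kb in the complex list, 779 kb in the helix-loop-helix list and 746 kb in the HES and HEY list, against 707 kb over all protein-coding genes.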

How the data were processed

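CUT&Tag peaks were available as 1 narrowPeak list without a header. The peak names hold a short form of "combined", and the list was taken to pool both GATA2 libraries. Per the submitters' processing notes, MACS2 2.2.6 was among the tools, beside bedtools 2.29.2, Bowtie2 2.3.5.1, Picard 2.23.0, SAMtools and Trimmomatic 0.39, and the build was GRCm38 (mm10). Peak calling parameters and the control are not given in the sources. The deposited fold enrichment is the peak caller's ratio at the summit, its significance was deposited as −log10 of p and of q, and the deposited display score is 10 times −log10 p without decimals in each of 995 entries. These are the authors' values for single peaks and were used only within the list.

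The summit is the 1-based interval start plus the offset. Distances were taken to RefSeq gene bodies of GRCm38.p6, and the nearest gene was the protein-coding gene with the closest boundary at either end. Fragment numbers were solved from fold and p (scale 0.378), and all 995 lay within 0.05 of a whole number. They are inferred values, in which any remaining PCR duplicates count too. Scripts ran in Python 3.11.15 with numpy 2.4.6, pandas 2.3.3 and scipy 1.17.1 and were tested on simulated data.

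The genes and lists were chosen with earlier results of these data known. Named genes were all 7 genes, from each list the genes nearest to a summit (at most 5 by fold), and the genes most like Id3 and Tcf3 by the rules in the text. Genes of a list named beyond these were chosen after their values were seen.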

Additional observations from a re-analysis of the deposited data

How the results depend on the processing

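The 2 genes with a summit, Id3 and Tcf3, were 2 of 7 under all 8 alternatives (windows of 10 and 50 kb, a q of at most 0.05, a −log10 q of at least 5, 1 summit per interval, the nearest protein-coding gene, the nearest gene of any type, and interval overlap). Summits near ID genes, 5 as reported, fell to 1 at a −log10 q of at least 5 (E protein genes 3). Summits near E protein genes, 4 as reported, were 2 with windows of 10 and 50 kb and 1 with either nearest-gene rule. The background share of 14.9% became 4.6% and 9.68% with windows of 10 and 50 kb, 10.2% at a q of at most 0.05, 3.1% at a −log10 q of at least 5, 3.81% with the nearest protein-coding gene and 2.64% with the nearest gene of any type. The helix-loop-helix list, 3 genes, fell to 0 at 10 kb and at a −log10 q of at least 5, and to 1 at a q of at most 0.05 and with either nearest-gene rule. The complex list, 7 genes, fell to 1 at a −log10 q of at least 5 and 4 with the nearest gene of any type. The BMP list, 5 genes, fell to 2 at 10 kb and at a q of at most 0.05, 0 at a −log10 q of at least 5 and 3 with either nearest-gene rule. The HES and HEY list, 3 genes, fell to 0 at 10 kb and with either nearest-gene rule, and to 1 at a −log10 q of at least 5. Stricter settings leave fewer summits to count. No paired analysis was possible because the list pools the replicates, and for the same reason no replicate could be left out. Depth limits the weaker summits, where 6 to 10 fragments have counting intervals that overlap each other.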
